A study of Homo sapiens with 18 samples.

Results

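The response to thapsigargin was measured in gemcitabine-resistant pancreatic cancer cells whose STIM1 had been depleted, by sequencing of messenger RNA. L3.6pl is a human pancreatic cancer cell line, and GemR is a single derivative of it, kept in 64 nM gemcitabine, a nucleoside drug used against pancreatic cancer. The cells of this comparison were GemR transfected for 48 h with siRNA against STIM1 (siSTIM1) and given either 500 nM thapsigargin or the DMSO vehicle for the last 3 h. There were 3 libraries of each, 6 of the 18 libraries of the series, identified by their labels. The other 12 libraries were GemR with control siRNA (siCont) and parental L3.6pl (Par) with siCont, each with thapsigargin or vehicle and each in 3 libraries. Their levels are given only where groups are compared. All 18 libraries entered the filter on low values and shared 1 estimate of the spread, which every standard error and adjusted p uses. The labels do not say whether libraries of a group came from separate cultures, so p-values measure the spread between these libraries. As a model, the resistant state is that of 1 derivative line, and the depletion is a transient one.

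Thapsigargin blocks SERCA, the pump that fills the endoplasmic reticulum (ER) with calcium. The store empties, chaperones that need calcium fail, and unfolded proteins activate the 3 sensors of the unfolded protein response: PERK, which slows translation and raises ATF4, IRE1, which splices XBP1 mRNA, and ATF6, which is cleaved into a transcription factor. STIM1 is the ER protein that senses the empty store and opens ORAI channels in the plasma membrane, and the calcium that then enters activates calcineurin, which moves NFAT into the nucleus. Secretory cells of the pancreas depend on these pathways.

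Reads recovered from the deposited table ranged from 10861201 to 16519239 per library in the 6 libraries. STIM1 itself had 271.8, 352.9 and 304.6 normalized counts (reads divided by 1 size factor per library) in siSTIM1 cells with thapsigargin, and 390.3, 355.8 and 401.2 with vehicle. GemR siCont cells had between 4976.3 and 6400.8, so the groups lay far apart, and the siRNA lowered STIM1 by a log2 change of -4.32 with thapsigargin and -3.93 with vehicle. The level left by the siRNA was of the order of that in Par cells, which had 430.7 ± 15.14 with thapsigargin and 457.1 ± 20.61 with vehicle (SD, n = 3 each). Within siSTIM1 cells, STIM1 was a little lower with thapsigargin (log2 change -0.31, standard error of the fit (SE) 0.096, adjusted p = 0.022), a call that was lost without the first thapsigargin replicate (adjusted p = 0.13). The epithelial marker EPCAM had between 2353 and 2677 normalized counts in the 6 libraries. Of the markers of other cell types INS, GCG, PRSS1, CPA1, DCN, LUM, FAP and LYZ had no read in any of the 6 libraries. Other markers were present: the collagen gene COL1A1 ranged from 1007 to 1726 normalized counts, the macrophage marker CD68 from 71.2 to 120.2, the endothelial markers PECAM1 from 55.4 to 97.3 and CDH5 from 22.4 to 104.8, the smooth muscle actin gene ACTA2 from 45.5 to 56.3 and the acinar lipase gene CEL from 29.5 to 53.6.

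Promoters of 6 genes that rose are shown first. They hold matches to short elements known to read the unfolded protein response and cyclic AMP or calcium signals. A single annotated start per gene was used, and other starts of a gene were not examined. The sequences are the 250 bases before the annotated start from RefSeq (GRCh38.p14), written 5′ to 3′ along the gene, with the letters of a matched element in capitals. The elements searched on both strands were the ER stress element, CCAAT and CCACG with 9 bases between them (ERSE), its second form, ATTGG and CCACG with 1 base between them (ERSE-II), TGATGNAA (core of the C/EBP-ATF element), TGACGTGG (core of the unfolded protein response element) and TGACGTCA (cyclic AMP response element, CRE). HSPA5 lies at chr9:125241344-125241593 on the minus strand, HYOU1 at chr11:119057206-119057455 on the minus strand, HERPUD1 at chr16:56931892-56932141 on the plus strand, CHAC1 at chr15:40953221-40953470 on the plus strand, ATF3 at chr1:212565157-212565406 on the plus strand and CGA at chr6:87095107-87095356 on the minus strand.
HSPA5: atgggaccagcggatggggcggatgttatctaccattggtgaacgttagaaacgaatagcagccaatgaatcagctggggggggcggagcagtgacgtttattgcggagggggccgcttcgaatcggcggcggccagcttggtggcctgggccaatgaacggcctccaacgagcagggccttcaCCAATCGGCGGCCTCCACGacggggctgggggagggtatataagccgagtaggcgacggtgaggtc
HYOU1: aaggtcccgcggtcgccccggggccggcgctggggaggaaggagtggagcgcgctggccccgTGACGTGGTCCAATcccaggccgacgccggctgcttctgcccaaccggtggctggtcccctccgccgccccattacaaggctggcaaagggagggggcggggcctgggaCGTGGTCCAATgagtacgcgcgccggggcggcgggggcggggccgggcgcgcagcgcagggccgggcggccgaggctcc
HERPUD1: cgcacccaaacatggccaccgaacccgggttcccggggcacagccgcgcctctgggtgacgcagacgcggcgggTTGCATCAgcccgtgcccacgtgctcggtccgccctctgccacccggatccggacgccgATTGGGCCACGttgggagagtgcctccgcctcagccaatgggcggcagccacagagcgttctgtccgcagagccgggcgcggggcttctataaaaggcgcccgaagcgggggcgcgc
CHAC1: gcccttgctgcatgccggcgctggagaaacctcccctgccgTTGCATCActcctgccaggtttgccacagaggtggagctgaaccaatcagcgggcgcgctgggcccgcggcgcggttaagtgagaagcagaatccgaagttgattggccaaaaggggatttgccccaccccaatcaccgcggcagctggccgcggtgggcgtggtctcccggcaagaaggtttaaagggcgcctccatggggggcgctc
ATF3: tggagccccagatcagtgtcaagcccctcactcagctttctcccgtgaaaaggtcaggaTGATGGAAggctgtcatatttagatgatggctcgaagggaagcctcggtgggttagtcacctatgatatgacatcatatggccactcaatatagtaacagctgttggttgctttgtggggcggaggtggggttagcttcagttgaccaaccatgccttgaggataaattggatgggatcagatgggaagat
CGA: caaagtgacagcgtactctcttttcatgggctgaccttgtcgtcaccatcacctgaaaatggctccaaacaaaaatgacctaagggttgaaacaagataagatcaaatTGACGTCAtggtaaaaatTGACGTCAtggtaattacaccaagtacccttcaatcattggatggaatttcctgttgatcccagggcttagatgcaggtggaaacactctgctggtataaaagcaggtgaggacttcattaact

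The capitals mark an ERSE in HSPA5 from -66 to -48, counted from the start site, and an ERSE-II in HERPUD1 from -117 to -107. HYOU1 holds 2 ERSE-II on the minus strand, from -185 to -175 and from -79 to -69, the first overlapping a core of the unfolded protein response element. A core of the C/EBP-ATF element stands in HERPUD1, CHAC1 and ATF3, and CGA holds 2 CREs, from -142 to -135 and from -124 to -117. Over all 27305 promoter windows of 300 bases in the RefSeq table, 0.0806% held an ERSE and 0.0549% an ERSE-II, 3.67% the C/EBP-ATF core, 0.795% the unfolded protein response core and 1.98% a CRE. Of the 25 tested ER chaperones and foldases described below, 23 had a promoter in the table, of which 6 held an ERSE (26.1%) and 2 an ERSE-II (8.7%). Among 21 tested coat proteins of ER and Golgi vesicles, 19 had a promoter and 7 of these held the unfolded protein response core (36.8%). A match describes letters in the window and is not a measured binding site.

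Thapsigargin changed the level of 3187 of 13096 tested genes in siSTIM1 cells, with 1635 higher and 1552 lower than with vehicle. Rises were larger than falls: 413 of the higher calls (3.15% of tested genes) and 132 of the lower calls (1.01%) reached a change of 2-fold. A change of 4-fold was reached by 99 higher and 3 lower calls, and one of 8-fold by 29 higher and 0 lower calls. The background share of calls was thus 24.3% of tested genes in either direction, 12.5% higher and 11.9% lower, and the median log2 change of all tested genes was -0.011. In the authors' deposited table of this comparison, 3287 of 13920 genes with an adjusted p passed the same threshold (23.6%). Calls of both sources numbered 3111, all in the same direction, which is 97.6% of the calls made here and 94.6% of those in the authors' deposited table. HSPA5 alone gained 68126 normalized counts and HERPUD1 gained 19960, the largest gains of any tested gene, and HSPA8 had the largest loss: it fell by 13547.

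The first thapsigargin replicate stood apart from the other libraries by transcript length. Its deviation from the group mean fell with length across 12419 genes (Spearman rho -0.54), with a median of 0.16 in the shortest of 10 length classes (up to 1409 bases) and -0.201 in the longest class (from 7551 bases). Without it, 2692 genes were called (20.6%), 1498 higher (11.4%) and 1194 lower (9.12%), and 2493 of the 3187 calls were kept, all in the same direction (78.2%). Of the 545 calls of at least 2-fold, 510 were kept. The longest class held 125 higher and 146 lower calls with this library, and 148 higher and 66 lower without it. Where a count of a gene group moved by more than 1.5 times without this library, both counts are given.

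**Figure D1:**
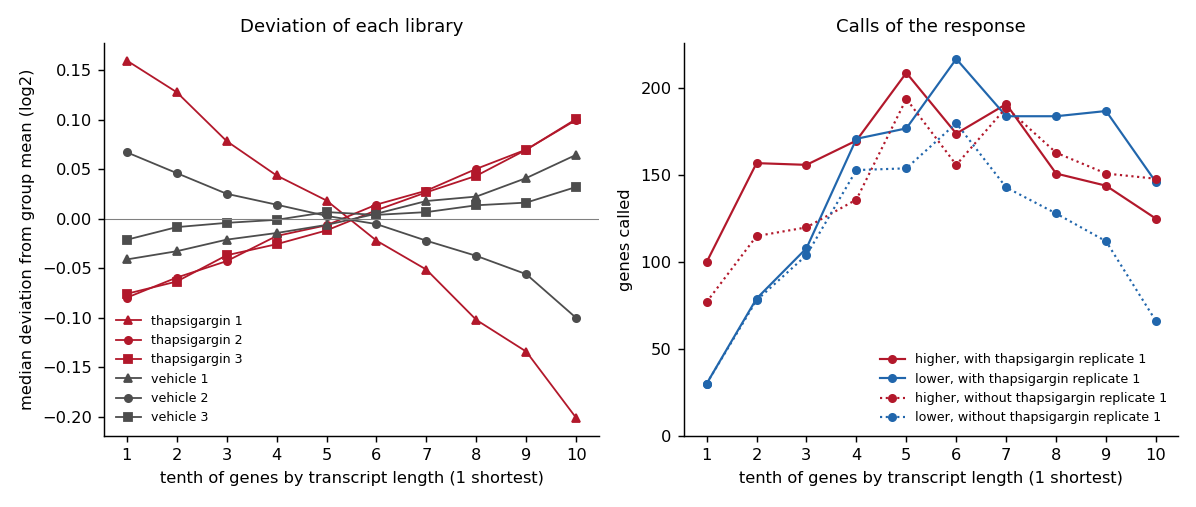
Left, median deviation of each library from its group mean (log2) in 10 classes of genes by transcript length, thapsigargin in red and vehicle in grey; right, number of genes called higher (red) or lower (blue) in each class with all libraries (solid) and without thapsigargin replicate 1 (dotted). Thapsigargin replicate 1 runs from 0.16 in the shortest to -0.201 in the longest class, and the longest class holds 66 lower calls without it and 146 with it.

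The transcription factors of the unfolded protein response rose strongly, and its sensors differed from each other. Of 16 sensors and factors, 11 rose and 1 fell, and the median log2 change was 0.98, against -0.011 over all tested genes. DDIT3, the pro-apoptotic factor CHOP, had 4225, 3436 and 3401 normalized counts with thapsigargin, against 173, 194 and 182 with vehicle. The groups lay far apart, with a log2 change of 4.32 (SE 0.12, adjusted p = 9.6e-16). ATF3, a repressor and activator induced by many stresses, had 599, 613 and 670 with thapsigargin and 87.6, 72.2 and 95.3 with vehicle, a log2 change of 2.88 (SE 0.16). XBP1, whose spliced mRNA encodes the effector of IRE1, had 7895, 7419 and 7327 with thapsigargin and 2234, 2252 and 2151 with vehicle, and gene counts do not separate its spliced from its unspliced form. CEBPB, a partner of CHOP, rose by a log2 change of 1.65, and EIF2AK3, which encodes PERK, by 1.52 (1199, 1382 and 1454 with thapsigargin against 485, 455 and 462 with vehicle). The ATF6 gene did not pass the test, with 933, 1040 and 1035 normalized counts with thapsigargin and 928, 929 and 956 with vehicle (log2 change 0.09, SE 0.06, adjusted p = 0.29), nor did ATF6B or the proteases MBTPS1 and MBTPS2 that cleave ATF6. ATF4, named here for its role after its values were seen, rose by 1.27 at the level of mRNA.

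Targets of ATF4 and CHOP had the highest median of the stress groups. Of 19 effectors 18 rose and 0 fell, with a median log2 change of 1.58, and ERO1A was the exception (log2 change 0.07, adjusted p = 0.47). CHAC1, an enzyme that degrades glutathione, had 2482, 1960 and 2092 normalized counts with thapsigargin, against 109, 106 and 89.4 with vehicle (log2 change 4.41, SE 0.11). SESN2, a stress-induced inhibitor of mTORC1, had 2130, 2020 and 1988 with thapsigargin and 149, 152 and 176 with vehicle (log2 change 3.68, SE 0.13). In both genes the lowest thapsigargin library was far above the highest vehicle library. STC2, a secreted glycoprotein of the stress response, had 11283, 11138 and 11081 with thapsigargin and 1731, 1695 and 1631 with vehicle, with the smallest p of this group (log2 change 2.73, SE 0.05, adjusted p = 4.6e-18). DDIT4, another inhibitor of mTORC1, rose by 2.53, and BBC3, which encodes the death-promoting PUMA, by 2.55 (62.3, 45.4 and 47.5 with thapsigargin against 6.83, 8.13 and 8.94 with vehicle). TRIB3, the pseudokinase that restrains ATF4 signalling, and PPP1R15A, the phosphatase subunit GADD34 that restores translation, rose by 2.24 and 2.12; both were named after their values were seen.

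**Figure D2:**
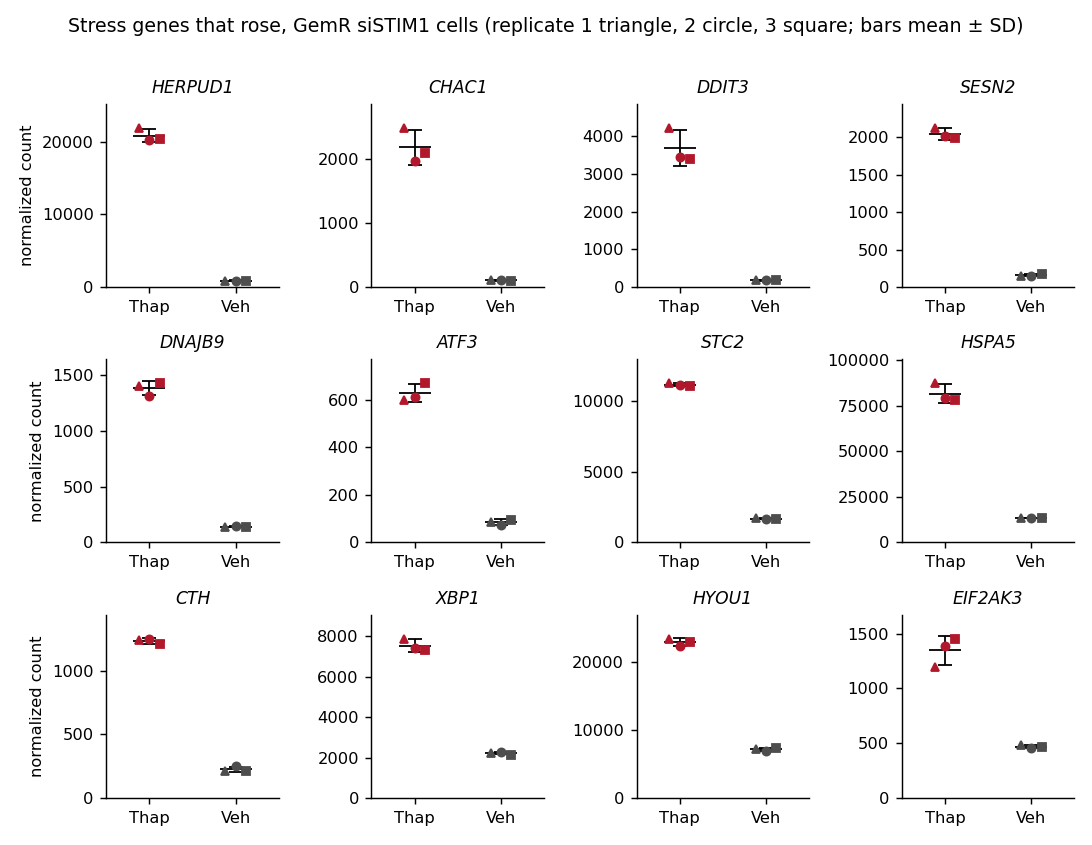
Normalized counts of 12 stress genes in each GemR siSTIM1 library, thapsigargin (red, left) and vehicle (grey, right), each vertical axis starting at 0; black bars give the mean and SD of 3 libraries. In each panel the 3 thapsigargin libraries lie above the 3 vehicle libraries, as in CHAC1 (1960 to 2482 against 89.4 to 109).

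Genes that supply amino acids and charge tRNAs rose beside them. Of 12 amino acid transporters 10 rose and 2 fell (1 fell without the first thapsigargin replicate; median log2 change 0.78), of 12 amino acid and folate enzymes 10 rose and 0 fell (0.75), and of 20 cytosolic aminoacyl-tRNA synthetases 11 rose and 0 fell (0.40). CTH, which makes cysteine from cystathionine, had 1246, 1256 and 1212 normalized counts with thapsigargin and 212, 249 and 214 with vehicle, the largest change of the enzymes (log2 change 2.46, SE 0.09). The neutral amino acid exchanger SLC1A4 had 1183, 1167 and 1190 with thapsigargin and 354, 306 and 294 with vehicle (log2 change 1.89, SE 0.10). The groups were well apart in both. SLC6A9, a glycine transporter, rose by 1.79, SLC38A2, a sodium-coupled neutral amino acid transporter, by 1.63, the mitochondrial folate enzyme MTHFD2 by 1.40, the serine-making PSPH by 1.33 and asparagine synthetase ASNS by 1.06. The synthetases split: WARS (1.25), CARS (1.03), GARS (0.98), SARS (0.83) and AARS (0.74) led those that rose. The other 9 did not pass, among them LARS, named after its values were seen, with 2974, 3296 and 3117 normalized counts with thapsigargin and 2972, 2939 and 2728 with vehicle (log2 change 0.12, adjusted p = 0.18).

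Nearly all chaperones and foldases of the ER rose: 23 of 25, with 0 lower and a median log2 change of 1.14. Their summed counts took 2.18% ± 0.084 of the library with thapsigargin and 0.985% ± 0.0082 with vehicle (SD, n = 3 each). HSPA5, the master chaperone BiP, had 87374, 79392 and 78014 normalized counts with thapsigargin and 13574, 13410 and 13417 with vehicle (log2 change 2.597, SE 0.06). DNAJB9, a BiP co-chaperone that represses IRE1, had 1407, 1317 and 1429 with thapsigargin and 141, 146 and 138 with vehicle, the largest change of the group (log2 change 3.28). The groups were again far apart. SDF2L1, a partner of ER DNAJ proteins, rose by 2.53, MANF, a secreted trophic factor held by BiP, by 1.74, and the nucleotide exchange factor HYOU1 by 1.69, with 23510, 22397 and 23039 against 7233, 6890 and 7312. SIL1, the other exchange factor of BiP, had 1143, 925 and 953 with thapsigargin and 862, 964 and 892 with vehicle (log2 change 0.15, adjusted p = 0.34), and TXNDC5 did not pass either (0.45, adjusted p = 0.09). HSP90B1 (1.17) and calreticulin CALR (1.03), abundant calcium-binding chaperones named after their values were seen, rose as well.

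The rest of the secretory pathway rose less. Of 20 genes of ER-associated degradation, which exports misfolded proteins to the proteasome, 13 rose and 1 fell (median 0.39), of 20 of the translocon and signal peptidase 12 rose and 0 fell (0.35), of 14 of N-glycosylation 10 rose and 0 fell (0.30), and of 21 of the COPII and COPI coats 14 rose and 0 fell (0.32). HERPUD1, a scaffold of the degradation complex, had 21907, 20212 and 20363 normalized counts with thapsigargin, against 834, 890 and 879 with vehicle. With a log2 change of 4.58 (SE 0.06, adjusted p = 1.3e-20) it was the highest of all tested genes that met the rule for naming, and the 3 libraries of each group lay within a narrow band. The ubiquitin ligase SYVN1 (1.66), its partner SEL1L (1.52), VIMP (1.11) and DERL2 (0.91) rose too. SEC24D, a cargo adaptor of COPII, had 1484, 1553 and 1546 with thapsigargin and 460, 375 and 413 with vehicle (log2 change 1.88, SE 0.08), and the next in the coats was SEC23B at 0.70. GFPT1, the first enzyme of the hexosamine pathway that feeds glycosylation, had 2946, 3249 and 3323 with thapsigargin and 1055, 1082 and 1118 with vehicle (log2 change 1.55). No translocon gene changed by 2-fold, with SEC61A1, the channel itself, at 0.60 and the translocon-associated SSR2 at 0.57.

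**Figure D3:**
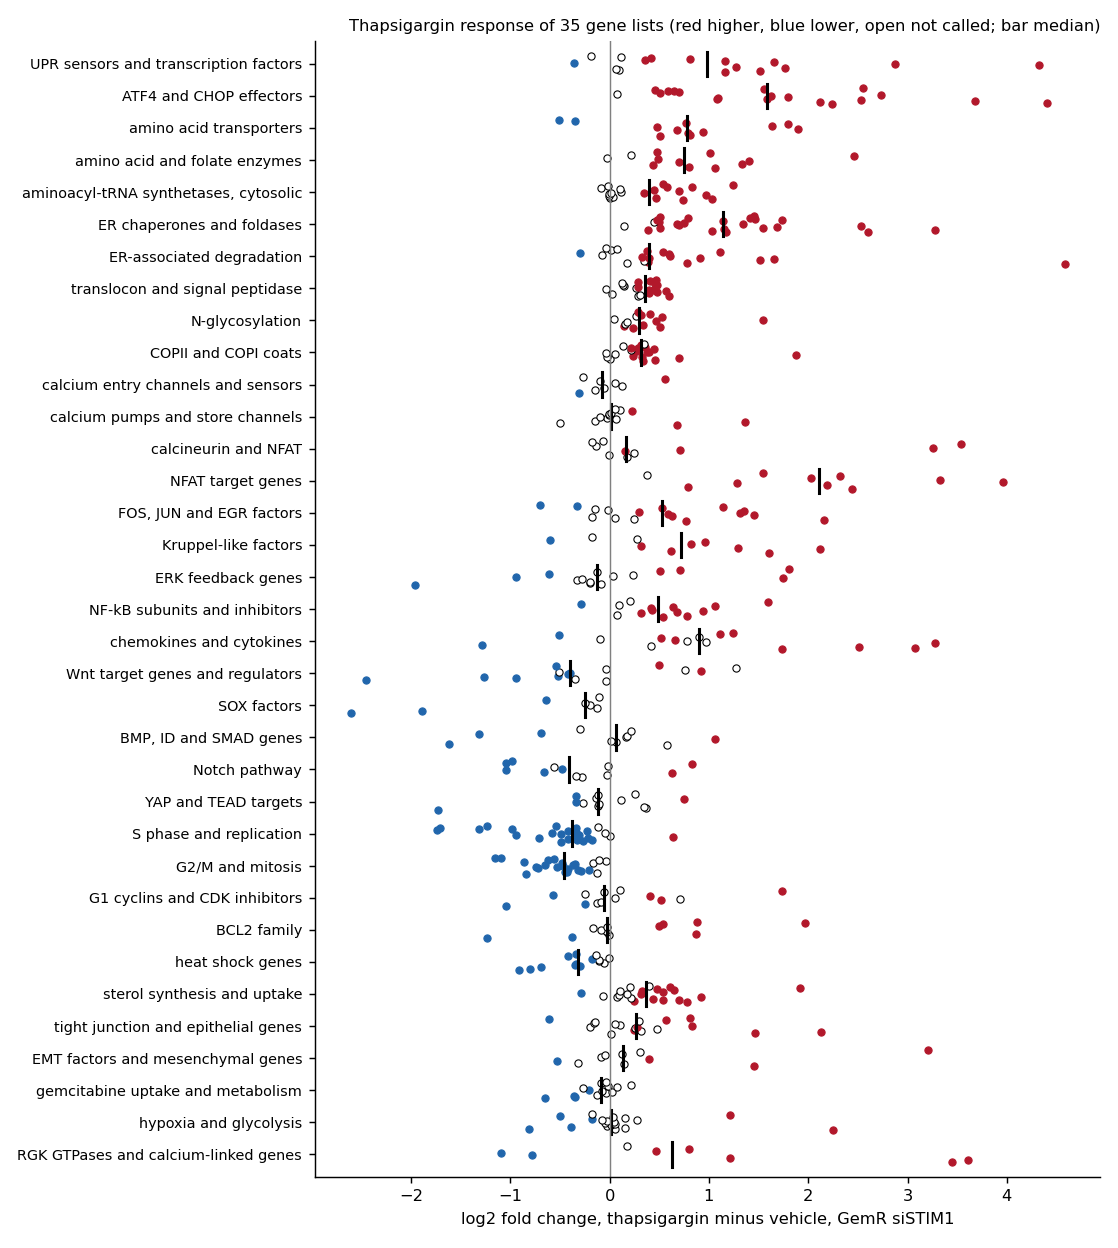
Log2 fold change, thapsigargin minus vehicle in GemR siSTIM1 cells, of each tested member of 35 gene lists (red called higher, blue called lower, open not called), with a black bar at the median of the list. Stress and secretory lists have medians from 0.30 to 1.58, NFAT targets 2.11, and the lists of S phase and G2/M -0.38 and -0.46.

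The genes of calcium entry and storage were called about as often as the background of 24.3%. Of 8 entry channels and sensors 1 rose, SARAF, and 1 fell, STIM1 itself (0 without the first thapsigargin replicate), and of 13 pumps and store channels 3 rose, ATP2B1, ATP2A2 and MCU, and 0 fell. SARAF, which limits entry through ORAI channels, had 3395, 3081 and 3252 normalized counts with thapsigargin and 2236, 2238 and 2134 with vehicle (log2 change 0.56, SE 0.06). STIM2, the sister sensor, had 294, 376 and 343 with thapsigargin and 393, 341 and 388 with vehicle, and its groups overlapped (log2 change -0.15, adjusted p = 0.29). ATP2A2, which encodes SERCA2, the target of thapsigargin, had 9123, 11002 and 11206 with thapsigargin and 6546, 6189 and 6803 with vehicle (log2 change 0.68, SE 0.11). ATP2B1, a plasma membrane calcium pump, had 5319, 6173 and 6148 with thapsigargin and 2364, 2172 and 2306 with vehicle (log2 change 1.36, SE 0.08). MCU, the channel of mitochondrial calcium uptake, rose by 0.23, a call that was lost without thapsigargin replicate 2 or 3 (adjusted p = 0.082 and 0.092) or vehicle replicate 2 or 3 (0.11 and 0.093) and with edgeR and DESeq2 (0.070 and 0.082). These edgeR and DESeq2 tests lacked vehicle replicate 3, and MCU passed in the authors' deposited DESeq2 table (adjusted p = 0.0155). The SERCA3 gene ATP2A3 did not pass (-0.50, adjusted p = 0.099). In ATP2A2 and ATP2B1 the first thapsigargin replicate was the lowest of its group and still above all vehicle libraries.

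Targets of calcineurin and NFAT rose in these STIM1-depleted cells and had the highest median of the lists, though part of them responded less than in GemR siCont cells. Of 10 NFAT targets 9 rose and 0 fell, with a median of 2.11, against a median of 3.18 in siCont cells and 2.22 in Par cells. Compared with Par cells, 2 of them had a higher and 2 a lower response in siSTIM1 cells. In the test of the difference between the 2 responses, 5 of the 10 had a lower response in siSTIM1 cells (2.9% of tested genes did) and 1 a higher one (1.5% did), which were 6 and 0 without siSTIM1 thapsigargin replicate 1 and siCont vehicle replicate 1, libraries that deviated by transcript length. Leaving out 1 library at a time gave 4 to 6 lower and 0 or 1 higher. Further, of 10 genes of calcineurin and NFAT themselves 4 rose and 0 fell, against 12.5% and 11.9% of all tested genes. RCAN1, a calcineurin inhibitor that NFAT induces, had 2396, 2135 and 2681 normalized counts with thapsigargin, against 182, 227 and 210 with vehicle (log2 change 3.54, SE 0.12). Its log2 change in siCont cells was 3.64. NFATC2, an NFAT factor, had 550, 730 and 822 with thapsigargin and 86.5, 53.9 and 78.5 with vehicle (log2 change 3.25, SE 0.19). The nuclear receptor NR4A2 had 834, 903 and 1012 with thapsigargin and 53.5, 56.9 and 63.6 with vehicle (log2 change 3.96, SE 0.17), and its relative NR4A3 rose by 3.32. These groups did not overlap, as those of 38.3% of tested genes did not. PTGS2, the inducible cyclooxygenase, rose by 2.44, the chemokine CXCL8 by 2.32 and EGR3 by 2.19, and TNFSF9 did not pass (0.38, adjusted p = 0.083). Of 8 RGK GTPases and other calcium-linked genes, 5 rose and 2 fell. GEM, a small GTPase that inhibits voltage-gated calcium channels, had 584, 570 and 679 normalized counts with thapsigargin, against 55.8, 55.9 and 37.7 with vehicle (log2 change 3.61). RRAD, of the same family, had 90.9, 79.0 and 78.2 with thapsigargin and 4.55, 9.15 and 6.95 with vehicle (log2 change 3.45). CYP24A1, the vitamin D hydroxylase, fell by 1.09 and the phosphodiesterase PDE7B fell by 0.78.

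Immediate-early factors rose in part. Of 17 genes of the FOS, JUN and EGR factors and their partners 10 rose and 2 fell (median log2 change 0.52), and of 10 Kruppel-like factors 7 rose and 1 fell (0.72). FOSB had 176, 231 and 325 normalized counts with thapsigargin and 48.9, 53.9 and 53.6 with vehicle (log2 change 2.16, SE 0.21), and JUND rose by 1.45, IER3 by 1.35 and MAFK by 1.14. FOSL1 did not pass: it had 5353, 4238 and 5762 with thapsigargin and 4103, 3860 and 4950 with vehicle, groups that overlapped. KLF4, a factor of differentiation, had 831, 876 and 928 with thapsigargin and 190, 190 and 224 with vehicle (log2 change 2.12, SE 0.11), and KLF2 rose by 1.60, KLF5 by 1.30 and KLF9 by 0.96. Feedback genes of ERK went both ways, with 4 of 15 higher and 3 lower, against 12.5% higher and 11.9% lower over all tested genes. DUSP1, a phosphatase of MAP kinases, had 7460, 5932 and 8184 with thapsigargin and 2005, 2049 and 2318 with vehicle (log2 change 1.75), and ERRFI1, an inhibitor of EGFR, rose by 1.80. SPRY1, which restrains growth factor receptors, had 48.4, 68.1 and 72.5 with thapsigargin and 249, 226 and 257 with vehicle (log2 change -1.96, SE 0.16), and DUSP2 fell by 0.94.

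Genes of NF-kB signalling and chemokines rose together. Of 14 NF-kB subunits and inhibitors 10 rose and 1 fell (median log2 change 0.49), and of 15 chemokines and cytokines 8 rose and 2 fell (0.90). BIRC3, an inhibitor of cell death, had 2033, 2069 and 2596 normalized counts with thapsigargin and 745, 653 and 819 with vehicle (log2 change 1.59, SE 0.14). TNFAIP3, the inhibitor A20, had 940, 959 and 1754 with thapsigargin and 560, 494 and 625 with vehicle, with the third thapsigargin library well above the other 2 (log2 change 1.06, SE 0.19). NFKBIA, the inhibitor IkB alpha, rose by 0.94, NFKB2 by 0.77 and RELB by 0.68. CCL20 had 123, 116 and 166 with thapsigargin and 10.2, 12.2 and 16.9 with vehicle (log2 change 3.28, SE 0.31), and the neutrophil chemokines CXCL2, CXCL3 and CXCL1 rose by 3.08, 2.52 and 1.73. CXCR4, the receptor of CXCL12, went the other way, with 73.1, 81.4 and 80.6 with thapsigargin against 196, 210 and 173 with vehicle (log2 change -1.29, SE 0.11).

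The SOX2 and AXIN2 genes had the lowest log2 changes of the named genes. SOX2, a stem cell factor, had 15.8, 32.9 and 12.9 normalized counts with thapsigargin, against 130, 119 and 113 with vehicle (log2 change -2.61, SE 0.26). SOX4 had 75.1, 98.6 and 96.7 with thapsigargin and 338, 307 and 362 with vehicle (log2 change -1.89, SE 0.13). Together with SOX13 (-0.64) these were the 3 of 7 SOX factors that fell, and 0 rose. SOX9, the ductal factor of the pancreas, had 357, 344 and 335 with thapsigargin and 397, 331 and 476 with vehicle, and its groups overlapped (log2 change -0.20, adjusted p = 0.29). AXIN2, a feedback inhibitor and common readout of Wnt signalling, had 12.8, 20.3 and 14.5 with thapsigargin and 106, 87.4 and 78.5 with vehicle (log2 change -2.45, SE 0.22). Of 15 Wnt targets and regulators 7 fell and 2 rose, and 4 fell without the first thapsigargin replicate. The background for SOX and Wnt genes was 11.9% lower and 12.5% higher calls, with 9.12% lower without that replicate. The Wnt inhibitor DKK1 and the receptor FZD7 were those that rose, by 0.92 and 0.50, and APCDD1, another inhibitor, fell by 0.54.

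Signals of the Notch and BMP families fell in part. Of 12 Notch genes 5 fell and 2 rose, and of 11 BMP, ID and SMAD genes 3 fell and 1 rose, against 2 and 0 without the first thapsigargin replicate. For these groups and the YAP genes below, the background was 11.9% lower and 12.5% higher calls (9.12% and 11.4% without that replicate). The ligand DLL1 had 237, 218 and 255 normalized counts with thapsigargin and 514, 508 and 448 with vehicle (log2 change -1.05, SE 0.10). NRARP and LFNG, a feedback inhibitor and a modifier of Notch, fell by 1.04 and 0.98, the target HES1 fell by 0.48, and the target HEY1 rose by 0.83. BMP4, a secreted signal, had 142, 172 and 132 with thapsigargin and 473, 473 and 423 with vehicle (log2 change -1.62, SE 0.16). SMAD6, an inhibitor that BMP signals induce, had 85, 90.8 and 97.5 with thapsigargin and 221, 229 and 236 with vehicle (log2 change -1.32, SE 0.13). ANKRD1, a target of YAP, had 108, 104 and 116 with thapsigargin and 356, 367 and 368 with vehicle (log2 change -1.73, SE 0.09), and of 13 YAP and TEAD genes 3 fell and 1 rose, the tissue factor gene F3 (0.75). The best known YAP targets CTGF and CYR61 did not pass, with log2 changes of 0.37 and 0.35 and adjusted p-values of 0.065 and 0.054. GATA2 (-1.70), the ubiquitin ligase adaptor gene ENC1 (-1.73), IER5L (-1.72), DTX4 (-1.70), SP6 (-1.73) and the coactivator gene PPARGC1B (-1.78) were the other large falls.

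**Figure D4:**
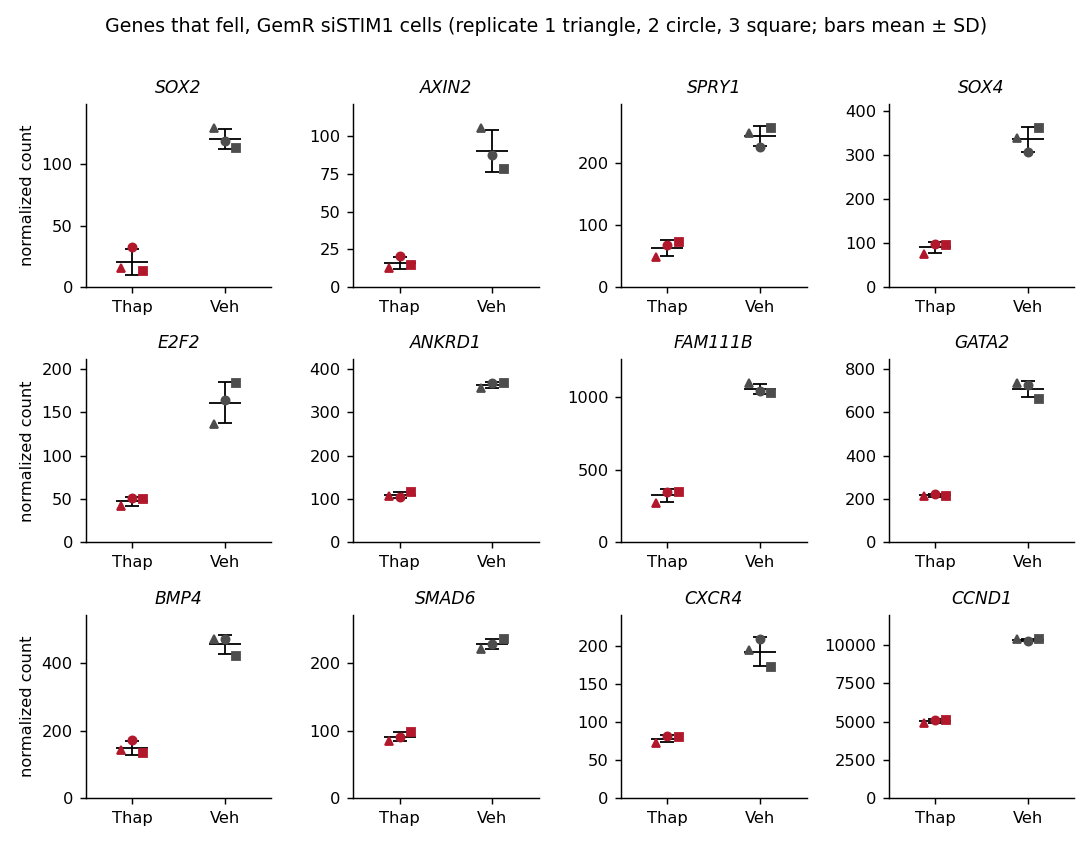
Normalized counts of 12 genes that fell in each GemR siSTIM1 library, thapsigargin (red, left) and vehicle (grey, right), each vertical axis starting at 0; black bars give the mean and SD of 3 libraries. SOX2 lies between 12.9 and 32.9 with thapsigargin and between 113 and 130 with vehicle, and CCND1 between 4899 and 5115 against 10293 and 10427.

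Genes of the cell cycle fell broadly and mostly by less than 2-fold after 3 h. Of 26 genes of S phase and replication 22 fell and 1 rose (median log2 change -0.38), and of 24 genes of G2/M and mitosis 20 fell and 0 rose (-0.46). CCND1, the cyclin D1 gene that starts the cycle, had 4899, 5085 and 5115 normalized counts with thapsigargin and 10371, 10293 and 10427 with vehicle (log2 change -1.04, SE 0.07). E2F2 had 41.5, 50.9 and 50 with thapsigargin and 137, 164 and 184 with vehicle (log2 change -1.74), FAM111B, a protease gene of replicating cells, fell by 1.71, CCNE1 fell by 1.32 and UHRF1 fell by 1.24. In G2/M the largest falls were in CCNF (-1.15), PSRC1 (-1.10), the phosphatase gene CDC25B (-0.86) and the kinase gene AURKA (-0.84). The 1 gene of S phase that rose was CDC6, a licensing factor named after its values were seen, with 4046, 4359 and 4093 with thapsigargin and 2699, 2687 and 2620 with vehicle (log2 change 0.64). Of 13 G1 cyclins and inhibitors 3 rose and 3 fell, against 12.5% and 11.9% of all tested genes. MXD1, a repressor of growth genes, rose by 1.74, the inhibitor CDKN1B by 0.52 and CDKN2B by 0.40. CDK4 did not pass, with 2963, 2717 and 2658 against 2972, 3124 and 3003 (log2 change -0.13, adjusted p = 0.22).

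Members of the BCL2 family that promote and restrain death both moved, with 5 of 13 higher and 2 lower (3 and 2 without the first thapsigargin replicate). The shares over all tested genes were 12.5% higher and 11.9% lower (11.4% and 9.12% without that replicate). PMAIP1, which encodes the death-promoting NOXA, had 522, 552 and 629 normalized counts with thapsigargin and 144, 145 and 142 with vehicle (log2 change 1.97, SE 0.12), and BCL2L11, which encodes BIM, rose by 0.54. MCL1, the protective partner of NOXA, had 17586, 17822 and 20761 with thapsigargin and 10349, 9692 and 10720 with vehicle (log2 change 0.87, SE 0.09). BCL2 had 21.7, 34.4 and 33 with thapsigargin and 79.7, 69.1 and 61.6 with vehicle (log2 change -1.23, SE 0.22). In each of these genes the 2 groups were apart.

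Of 14 cytosolic and mitochondrial heat shock genes 9 fell and 0 rose (median log2 change -0.32), while the ER chaperones rose. Without the first thapsigargin replicate 7 fell and 0 rose. HSPA8, the constitutive cytosolic HSP70, had 21242, 21748 and 22901 normalized counts with thapsigargin and 36090, 35392 and 35049 with vehicle (log2 change -0.69, SE 0.06). BAG3, a co-chaperone, fell by 0.42 and DNAJB1 fell by 0.35. The mitochondrial HSPD1 (-0.10, adjusted p = 0.25) and HSPE1 did not pass. HSPA1A and HSPA1B, near-identical copies whose counts are uncertain because reads can be shared, fell by 0.91 and 0.80. Sterol genes rose, 13 of 22 with 1 lower (median 0.36). STARD4, a carrier of cholesterol, had 648, 698 and 824 with thapsigargin and 176, 186 and 210 with vehicle (log2 change 1.91, SE 0.12), and the synthesis genes IDI1, HMGCS1, SQLE and MSMO1 rose by 0.92, 0.78, 0.70 and 0.65.

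VEGFA rose and SLC2A1 fell, and most genes of hypoxia and glycolysis did not pass the test. VEGFA, the angiogenic factor that PERK and hypoxia induce, had 5012, 5144 and 4803 normalized counts with thapsigargin, against 1044, 1064 and 1033 with vehicle (log2 change 2.25, SE 0.06). SLC2A1, the glucose transporter GLUT1, had 8208, 9090 and 8507 with thapsigargin and 15073, 15411 and 14796 with vehicle (log2 change -0.81, SE 0.08). Of 19 genes of hypoxia and glycolysis 2 rose and 4 fell (2 and 7 after quantile normalization), and the other gene that rose was NDRG1 (1.21). Without the first thapsigargin replicate 2 rose and 2 fell. HK2, the hexokinase of many tumours, had 1268, 1444 and 1401 with thapsigargin and 1274, 1200 and 1216 with vehicle (log2 change 0.15, adjusted p = 0.20). Of 14 genes of gemcitabine uptake and metabolism 4 fell and 0 rose, and 2 fell without the first thapsigargin replicate. Over all tested genes 11.9% fell and 12.5% rose, and 9.12% fell without that replicate. SLC29A1, the main carrier of gemcitabine into the cell, had 350, 362 and 320 with thapsigargin and 556, 524 and 539 with vehicle (log2 change -0.65, SE 0.08). RRM1, the ribonucleotide reductase subunit that gemcitabine blocks, had 46925, 53065 and 50074 with thapsigargin and 59323, 58788 and 55241 with vehicle (log2 change -0.21, adjusted p = 0.012), a call that was lost without the first thapsigargin replicate (adjusted p = 0.065) or the first vehicle replicate (adjusted p = 0.057).

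Junction genes rose in part, with 7 of 18 tight junction and epithelial genes higher and 1 lower (7 and 5 after quantile normalization). For this and the next group, the background was 12.5% higher and 11.9% lower calls. CLDN4, a claudin of tight junctions, had 815, 504 and 652 normalized counts with thapsigargin and 155, 132 and 155 with vehicle (log2 change 2.13, SE 0.24), and CLDN3 and CDH1, which encodes E-cadherin, rose by 1.46 and 0.83. ESRP2, a splicing factor of epithelia, fell by 0.61. Of 10 genes of epithelial-mesenchymal transition 3 rose and 1 fell. VIM, which encodes the filament protein vimentin, rose by 0.40, and ZEB1 did not pass (-0.32, adjusted p = 0.15). Markers of other cell types were few. Of 7 fibroblast markers 3 were tested and 1 rose, COL1A1, and the sum over the list ran from 1510 to 1785 with thapsigargin and from 1058 to 1212 with vehicle, most of it COL1A1. The libraries come from a cell line, and the source of the reads of such marker genes was not tested. Of 10 immune and endothelial markers 3 were tested, CDH5 rose and PECAM1 fell, and the sums ran from 271 to 288 with thapsigargin and from 190 to 271 with vehicle. Acinar and endocrine markers had sums of 34.4 to 53.4 with thapsigargin and 31.5 to 56.6 with vehicle.

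Several of the largest rises belonged to no list. ZNF165, a zinc finger gene, had 1025, 940 and 894 normalized counts with thapsigargin, against 66, 79.3 and 70.5 with vehicle (log2 change 3.71, SE 0.12). CGA, the alpha subunit shared by the glycoprotein hormones and the gene with 2 CREs above, had 204, 124 and 150 with thapsigargin and 17.1, 11.2 and 14.9 with vehicle (log2 change 3.37, SE 0.49). BHLHA15, which encodes MIST1, the XBP1-induced factor of secretory cells, had 123, 116 and 130 with thapsigargin and 6.83, 12.2 and 10.9 with vehicle (log2 change 3.53, SE 0.22). Vehicle levels of the last 2 were close to the filter on low values, while the thapsigargin levels were not. C11orf96, C8orf4 and the pseudogene ZSCAN12P1 rose by 3.87, 3.81 and 3.82. Their vehicle means were low too, at 5.527, 3.148 and 17.58, against 79.19, 59.25 and 262.4 with thapsigargin.

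The response was set against that of GemR siCont cells by a test of the difference between the 2 responses. It called 577 genes (4.41%), 197 with a higher and 380 with a lower response in siSTIM1 cells (1.5% and 2.9%), and 264 higher and 316 lower after quantile normalization. RRAD rose by a log2 change of 3.45 in siSTIM1 cells and by 5.91 in siCont cells, a difference of -2.47 (SE 0.43, adjusted p = 0.0017). Its means were 82.71 with thapsigargin and 6.884 with vehicle in siSTIM1 cells, against 308.9 and 4.262 in siCont cells. CLDN4 rose by 2.13 in siSTIM1 cells and by 4.46 in siCont cells (difference -2.33), FZD10, a Wnt receptor, by 1.09 and 3.58 (-2.48), and LYPD3, a surface protein of epithelia, by 0.81 and 3.46 (-2.65). LYPD3 and the cholesterol exporter gene ABCA1 were already higher in siSTIM1 vehicle cells than in siCont vehicle cells, by 2.52 and 2.58. ABCA1 had means of 858.5 with thapsigargin and 728.6 with vehicle in siSTIM1 cells, against 662.8 and 126.6 in siCont cells (difference -2.24). ELF3, an epithelial factor, had 273.3 with thapsigargin and 272.4 with vehicle in siSTIM1 cells against 988.5 and 217.2 in siCont cells (difference -2.17), and the cell cycle inhibitor gene CDKN1C had 13.63 and 7.772 against 94.5 and 12.07 (difference -2.16). CXCR4 moved in opposite directions, with a response of -1.29 in siSTIM1 cells and 1.12 in siCont cells (difference -2.41, SE 0.16, adjusted p = 4.1e-08). SOX4 and SOX2 fell by 1.89 and 2.61 in siSTIM1 cells, against changes of -0.26 and -0.78 in siCont cells (differences -1.63 and -1.83). NR4A2 rose less in siSTIM1 cells than in siCont cells, by 3.96 against 5.22 (difference -1.26).

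Other responses were higher in siSTIM1 cells. DDIT3 rose by 4.32 in siSTIM1 cells and by 3.35 in siCont cells (difference 0.97, SE 0.16, adjusted p = 0.0015), with vehicle means of 183 and 182.1. IFIT2, an interferon-induced gene, had 844.9 with thapsigargin and 394.4 with vehicle in siSTIM1 cells, against 340.2 and 373.2 in siCont cells (difference 1.23). CDH5, which encodes the cadherin of endothelium, had 94.52 and 32.79 in siSTIM1 cells against 94.31 and 81.62 in siCont cells (difference 1.34), and its vehicle level was lower in siSTIM1 than in siCont cells (log2 difference -1.33). ANKRD1, PDE7B, HES1 and CYP24A1 fell in both, by less in siSTIM1 cells: their responses were -1.73, -0.78, -0.48 and -1.09 in siSTIM1 cells and -3.24, -2.32, -1.86 and -2.47 in siCont cells (differences 1.52, 1.54, 1.38 and 1.38). The siCont vehicle group held a library with a strong length deviation of its own (replicate 1, rho -0.616). Leaving out 1 library at a time moved the 577 calls to between 323 and 1216, the lowest without siSTIM1 vehicle replicate 1 and the highest without siCont vehicle replicate 3, and 372 were called without siSTIM1 thapsigargin replicate 1. The counts were 334 without siCont thapsigargin replicate 1, 338 without its replicate 3 and 341 without siSTIM1 vehicle replicate 3.

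**Figure D5:**
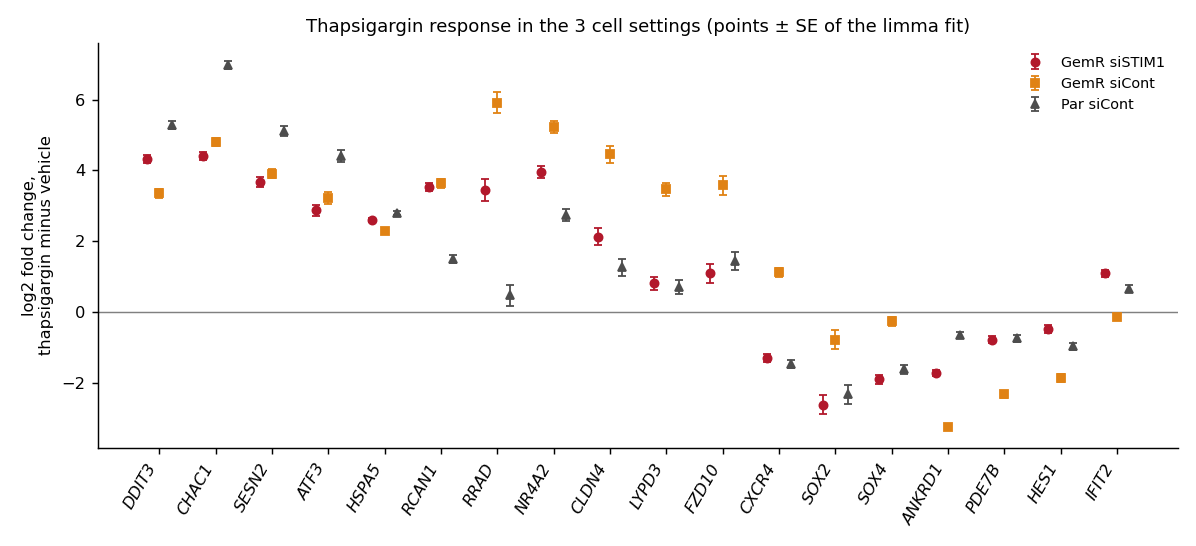
Log2 fold change, thapsigargin minus vehicle, of 18 genes in GemR siSTIM1 (red circles), GemR siCont (orange squares) and Par siCont cells (grey triangles), with the SE of the fit. RRAD lies at 3.45, 5.91 and 0.48 and CXCR4 at -1.29, 1.12 and -1.47 in that order, and HSPA5 at 2.597, 2.30 and 2.79.

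Against Par siCont cells, whose STIM1 level was close to that of depleted GemR cells, 1045 genes differed in response (7.98%), 400 higher and 645 lower in siSTIM1 cells (3.05% and 4.93%). Both differences use the siSTIM1 libraries, so they are not independent of each other. RRAD had means of 82.71 with thapsigargin and 6.884 with vehicle in siSTIM1 cells, against 7.835 and 5.623 in Par cells (difference 2.97, SE 0.43, adjusted p = 0.00018). RCAN1 rose by 3.54 in siSTIM1 cells and by 1.503 in Par cells (difference 2.03), PMP22, a membrane protein of myelin, by 2.50 and 0.49 (2.01), and CRIP2 rose by 2.52 in siSTIM1 cells, against a change of 0.56 in Par cells that did not pass (1.96). In GemR siCont cells RCAN1 rose by 3.64, and the test of the difference from siSTIM1 cells did not call it (adjusted p = 0.76). NR4A2 rose by 3.96 and 2.73 (difference 1.23). FAM111B fell by 1.71 in siSTIM1 cells and by 3.57 in Par cells (difference 1.86). Stress genes of the ATF4 and CHOP branch rose less in siSTIM1 cells than in Par cells. CHAC1 rose by 4.41 and 6.97 (difference -2.56, SE 0.16, adjusted p = 9.9e-09), with thapsigargin means of 2177.9 and 3162.7 and vehicle means of 101.4 and 24.31. ATF3 rose by 2.88 and 4.41 (-1.53), SESN2 by 3.68 and 5.12 (-1.44) and DDIT3 by 4.32 and 5.29 (-0.97). Of the 19 effectors of ATF4 and CHOP, 10 had a lower and 0 a higher response in siSTIM1 than in Par cells, against 4.93% and 3.05% of all tested genes. The median log2 change of these effectors was 1.2 in GemR siCont cells, 1.58 in siSTIM1 cells and 2.15 in Par cells. In siCont cells CHAC1, ATF3, SESN2 and DDIT3 rose by 4.82, 3.23, 3.91 and 3.35. Compared with siCont cells, 3 effectors had a higher and 1 a lower response in siSTIM1 cells. SP6 fell in siSTIM1 cells, with 61.55 and 206 against 16.36 and 11.11 in Par cells (difference -2.27). The count of 1045 ran from 621 to 1081 when 1 library was left out, with 666 without siSTIM1 thapsigargin replicate 1, 621 without siSTIM1 vehicle replicate 1 and without Par thapsigargin replicate 1, and 691 without Par vehicle replicate 1.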

How the data were processed

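RNA of 18 libraries (6 groups of 3) was sequenced after preparation with TruSeq RNA Library Prep Kit v2, per the labels' protocols. Per the submitters' processing notes, hg38, STAR 2.6.0c, HTSeq 0.11.1 and DESeq2 were used, with no annotation or filter stated. The deposited signal values are the authors' normalized counts, reads divided by 1 size factor per library; whole reads (within 0.01) were recovered for 17 libraries, and siSTIM1 vehicle replicate 3 was left out of tests on reads. The authors' deposited comparison table gives log2 fold changes and adjusted p-values.

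Normalized counts were taken as log2(value + 1), so fold changes of low genes are understated, and 13096 of 26485 genes with a mean of at least 10 entered a limma 3.58.1 model with an intensity trend (R 4.3.3) on all 18 libraries and Benjamini-Hochberg adjustment; genes under an adjusted p of 0.05 were called. edgeR 4.0.16 and DESeq2 1.42.0 on recovered reads, other filters, pseudocounts, scalings and left-out libraries were alternatives. Transcript lengths came from GENCODE 29 (12419 tested genes) and promoters from RefSeq (10449 tested genes, 9784 by symbol and 665 by synonym). In simulated data, only genes with a mean of at least 50 were changed, and libraries had no deviation by transcript length. There the fit recovered 67.2% of genes changed by 0.5 on the log2 scale and 99.5% of those changed by 1. For the difference from siCont these shares were 28.4% and 92.5%, and for that from Par 31.8% and 92%. Recovery of lower genes and under a length deviation was not tested.

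The comparison, its members and the gene lists were chosen with earlier results of these data known. Genes were named by rule: STIM1, RRM1, the 15 strongest called rises and 15 strongest called falls with non-overlapping groups and a group mean of at least 50, up to 5 called and 2 other members per list, the 8 highest and 8 lowest calls of each difference, and genes whose promoter is shown; others are marked as chosen after their values were seen. IL1A, which met the rule, passed the filter on low values only through Par thapsigargin libraries and is not given. Genes under date names were left out, and some values are not reported here. Reads were not stranded, so overlapping and antisense genes cannot be told apart.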

Additional observations from a re-analysis of the deposited data

Results flagged for a closer look

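The genes below were singled out because the difference between the response of siSTIM1 cells and that of another group passed the test of the difference itself. Against GemR siCont cells, lower responses were found in LYPD3 (-2.65), FZD10 (-2.48), RRAD (-2.47), CXCR4 (-2.41), CLDN4 (-2.33), ABCA1 (-2.24), ELF3 (-2.16), CDKN1C (-2.16), SOX2 (-1.83), SOX4 (-1.63) and NR4A2 (-1.26), as log2 differences. Higher responses were found in PDE7B (1.54), ANKRD1 (1.52), HES1 (1.38), CYP24A1 (1.38), CDH5 (1.34), IFIT2 (1.23) and DDIT3 (0.968). Against Par siCont cells, higher responses were found in RRAD (2.97), RCAN1 (2.03), PMP22 (2.01), CRIP2 (1.96), FAM111B (1.86) and NR4A2 (1.22). Lower ones were found in CHAC1 (-2.56), SP6 (-2.27), ATF3 (-1.53), SESN2 (-1.44) and DDIT3 (-0.967). Both sets use the siSTIM1 libraries.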

How the results depend on the processing

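No named call changed direction. The 3187 calls (1635 higher, 1552 lower) numbered between 2573 and 2929 when 1 library was left out, 2630 with edgeR (1529 higher, 1101 lower), 2755 with DESeq2, 545 at 2-fold or more and 5046 with a slope on transcript length (2440 higher, 2606 lower), and quantile normalization gave 1593 higher and 1872 lower. The 577 differences from siCont numbered 225 at an adjusted p under 0.01, 140 at 2-fold or more, 346 with edgeR, 317 from the libraries compared alone, 3500 with the slope, 323 to 1216 when 1 library was left out, and 626 without both length-deviating libraries, an alternative chosen after seeing the data. The 1045 differences from Par numbered 406, 200, 744, 2164, 4157 and 621 to 1081 in the same order. The slope was that of each library's deviation from its own group mean on transcript length. It therefore left fold changes as they were and only took up spread between libraries of a group. All 3187, 577 and 1045 calls were kept with it, and its larger counts are not a correction of the responses for length. ELF3, with no called response, changed sign, at -0.131 with DESeq2, -0.113 with edgeR and -0.135 to 0.103 when 1 library was left out. Replicate numbers were not taken as pairs: deviations of siSTIM1 thapsigargin libraries correlated with same-numbered vehicle libraries at -0.177, -0.0825 and 0.078, but with siCont vehicle libraries at 0.491, 0.14 and 0.288. A replicate block gave 3283, 679 and 1288 calls. The cause of these changes was not tested. With 10861201 to 16519239 reads a library and 3 libraries a group, small changes of low genes may not be detectable. STIM1's call was also lost without thapsigargin replicate 3 or vehicle replicates 1 or 3 and with edgeR and DESeq2, and PECAM1's with edgeR and DESeq2. These edgeR and DESeq2 tests were run without siSTIM1 vehicle replicate 3. In the authors' deposited DESeq2 table STIM1, PECAM1, RRM1 and MCU passed (adjusted p = 0.0336, 0.0141, 0.0013 and 0.0155). With the compared libraries alone, the calls of STIM1, PECAM1, RRM1 and MCU were lost (adjusted p = 0.0706, 0.0536, 0.0543 and 0.0533), and without the filter on low values that of RRM1 (0.0574).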

Other observations

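Further gene groups were put together after the first results had been seen, so their counts describe and support nothing. Of 15 tested keratins 6 rose and 0 fell, with a median log2 change of 0.296, against -0.011 over all tested genes. KRT16, a keratin of stressed epithelia, had 1094, 736 and 768 normalized counts with thapsigargin and 108, 132 and 108 with vehicle (log2 change 2.87). KRT14 rose by 2.47, KRT6A by 1.94, KRT80 by 1.11 and KRT17 by 0.98. Levels of KRT14 and KRT6A were low, with means of 48.16 and 37.19 with thapsigargin and 8.185 and 9.556 with vehicle. Of 12 matrix proteases and inhibitors 8 rose and 0 fell (median 0.396). The collagenases and stromelysins MMP13, MMP10 and MMP1 rose by 3.09, 3.05 and 1.29, and PLAUR, the urokinase receptor, by 1.39. Levels of MMP13 and MMP10 were low, with means of 19.13 and 25.79 with thapsigargin and 1.38 and 2.518 with vehicle. Both had higher means with thapsigargin in GemR siCont cells (43.97 and 195.5) and in Par cells (44.52 and 75.94).

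Of 18 secreted growth factors and hormones 7 rose and 3 fell. ADM2 rose by 3.25 and STC1 by 1.58. The EGF receptor ligands HBEGF, EREG and AREG rose by 1.54, 1.24 and 1.11, while TGFA, another ligand, fell by 0.51, and PDGFB and PDGFA fell by 0.80 and 0.72. Of 18 autophagy genes 7 rose and 2 fell (1 fell without the first thapsigargin replicate), led by WIPI1 (1.71) and MAP1LC3B (0.97). Of 19 interferon-stimulated genes 5 rose and 0 fell, among them OASL (1.29), IFIT2 (1.10) and ISG20 (1.03). Of 13 NRF2 targets 2 rose and 2 fell, and of 18 translation initiation factors 6 rose and 2 fell, with EIF5 at 0.73 and EIF1 at 0.65. The shares over all tested genes were 12.5% higher and 11.9% lower.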
